A study of Mus musculus with 9 samples.

Results

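The Ifi200 family of interferon-inducible DNA sensors was followed through its 7 named genes, Ifi202b, Ifi203, Ifi204, Ifi205, Mnda, Pyhin1 and Aim2, which were taken by symbol from 23234 gene rows and were all found. Expression was measured by RNA sequencing in 9 libraries of CD11b+ monocytes sorted from blood of C57BL/6 mice with the lupus accelerator Yaa, 8 months old, in which the Y chromosome carries an extra copy of an X segment with Tlr7. Every mouse, controls included, carried Yaa. There were 4 Gr-1+ libraries, labelled null (Fcgr2-/-.Yaa, 2 libraries), CEBPaCre (CEBPaCre;Fcgr2 fl/fl.Yaa, 1 library) and CD19Cre (CD19Cre;Fcgr2 fl/fl.Yaa, 1 library). The 5 Gr-1- libraries were 1 each of null, CEBPaCre, CD11cCre (CD11cCre;Fcgr2 fl/fl.Yaa), CD19Cre and floxed (Fcgr2 fl/fl.Yaa, with no Cre). CEBPaCre is known to act in myeloid cells, CD19Cre in B cells, and CD11cCre in dendritic cells with part of the monocytes. The labels give neither the number of mice per library nor whether libraries came from separate mice, so each p measures the spread between libraries, which may be technical.

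Proteins of this family share a HIN domain that binds DNA, and most also carry a pyrin domain for contact with other proteins. In mouse, AIM2 binds DNA in the cytosol and assembles an inflammasome through the adaptor ASC, p204 (Ifi204) is known to pass DNA signals to the STING pathway, and p202 (Ifi202b), which lacks a pyrin domain, is known to hold AIM2 back. Several members are induced by type I interferon. The gene cluster lies on distal chromosome 1 in a region linked to murine lupus, and Ifi202b is a well-known strain-dependent gene of that region, low in C57BL/6 and high in NZB-derived mice.

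In the RefSeq GRCm38.p6 gene table, used here for names and gene order, Mnda appears as Ifi211 and Pyhin1 as Ifi209. The same table placed 4 further rows of the files in the family, AI607873 (Ifi207), Mndal, Pydc3 (Ifi208) and Pydc4 (Ifi213). Along the chromosome the order was Aim2, Pydc4, Pyhin1, Pydc3, AI607873, Ifi204, Mndal, Mnda, Ifi203, Ifi202b and Ifi205, with no other placed gene row between them. Between this cluster and the targeted gene Fcgr2b lay 69 other gene rows.

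The deposited values are FPKM, read fragments scaled by transcript length and library size, without read counts, so depth is unknown. A value of 1 FPKM or more was reached by 9783 to 10258 genes, depending on the library. The pair of CD19Cre libraries differed from the rest. In them, 82 cytosolic ribosomal protein genes took up 1.89% (Gr-1+) and 2.16% (Gr-1-) of all FPKM, with 3.48% to 7.39% in the other 7 libraries. The targeted gene did not follow the labels in either subset. In Gr-1+, Fcgr2b was at 201 and 105.9 FPKM in null, 148 FPKM in CEBPaCre and 195 FPKM in CD19Cre. In Gr-1- it was at 145 FPKM in null, 83.0 FPKM in CEBPaCre, 92.9 FPKM in CD11cCre, 105 FPKM in CD19Cre and 74.9 FPKM in floxed. RNA of the gene was thus listed in every library labelled null, at levels both above and below those of libraries labelled intact. The monocyte genes Csf1r, Itgam, Cd14 and Cd68 were present in every library, the lowest value being 45.9 FPKM. Genotypes are therefore named only as the libraries are labelled.

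The first comparison asked how the family differs between Gr-1+ and Gr-1- monocytes. Of the 7 genes, 6 had a mean of at least 1 FPKM and entered the fit, and 5 of these, Ifi203, Ifi204, Ifi205, Mnda and Pyhin1, rose in Gr-1+ libraries (limma on log2(FPKM + 1), Benjamini-Hochberg adjusted p at or under 0.05). Over all 10436 genes tested, 8.84% were called higher in Gr-1+ and 5.95% lower. Their folds were between 2.15 and 4.76. Aim2 did not pass the test, and Ifi202b was near 0 everywhere and was not tested. In such bulk libraries, a change in the share of expressing cells and a change of RNA per cell cannot be told apart.

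Ifi204, the sensor linked to STING, rose in Gr-1+ with the smallest fold of the 5. It was at 64.3 and 88.1 FPKM in null replicates 1 and 2, 134 FPKM in CEBPaCre and 57.8 FPKM in CD19Cre among Gr-1+ libraries, against 30.8 FPKM in null, 45.2 FPKM in CEBPaCre, 49.6 FPKM in CD11cCre, 29.0 FPKM in CD19Cre and 36.5 FPKM in floxed among Gr-1- libraries. The lowest Gr-1+ library thus lay above the highest Gr-1- library. The log2 difference was 1.10 ± 0.28 (SE, limma adjusted p = 0.0198), a 2.15-fold rise of FPKM + 1. It was the weakest of the 5 calls, since leaving out null Gr-1+ replicate 2 (adjusted p = 0.0532), the CEBPaCre Gr-1+ library (0.0595), the null Gr-1- library (0.0509) or both the CD11cCre and the floxed library (0.0521) ended the call. Over all alternatives its adjusted p lay between 2.8e-04 and 0.0595.

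Pyhin1, an interferon-inducible member of the family, was at 49.96 and 72.6 FPKM in null, 139 FPKM in CEBPaCre and 86.4 FPKM in CD19Cre Gr-1+ libraries. In Gr-1- it was at 13.96 FPKM in null, 30.2 FPKM in CEBPaCre, 25.7 FPKM in CD11cCre, 19.4 FPKM in CD19Cre and 16.7 FPKM in floxed. The subsets did not overlap, and the log2 difference was 1.94 ± 0.31 (limma adjusted p = 0.00168). Pyhin1 was the highest member in the CEBPaCre and CD19Cre Gr-1+ libraries, whereas Ifi204 was the highest in the other 7 libraries.

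Mnda, named for the myeloid cell nuclear differentiation antigen, was at 35.96 and 70.0 FPKM in null, 104.9 FPKM in CEBPaCre and 40.8 FPKM in CD19Cre Gr-1+ libraries, against 8.61 FPKM in null, 16.1 FPKM in CEBPaCre, 18.4 FPKM in CD11cCre, 10.1 FPKM in CD19Cre and 14.6 FPKM in floxed Gr-1- libraries. Every Gr-1+ library was higher than every Gr-1- library, by 2.05 ± 0.33 on the log2 scale (limma adjusted p = 0.0018).

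Ifi205, whose mouse protein has been described as a regulator of the gene for ASC, had the largest fold of the members. It was at 17.9 and 40.2 FPKM in null, 59.3 FPKM in CEBPaCre and 22.8 FPKM in CD19Cre Gr-1+ libraries. In Gr-1- it was at 2.50 FPKM in null, 6.90 FPKM in CEBPaCre, 6.36 FPKM in CD11cCre, 5.63 FPKM in CD19Cre and 9.98 FPKM in floxed. The groups were again separate, with a 4.76-fold rise (log2 difference 2.25 ± 0.39, limma adjusted p = 0.00249). Ifi203, a nuclear member of the family, was at 18.2 and 36.5 FPKM in null, 39.1 FPKM in CEBPaCre and 11.99 FPKM in CD19Cre Gr-1+ libraries, against 4.11 FPKM in null, 6.47 FPKM in CEBPaCre, 5.69 FPKM in CD11cCre, 2.83 FPKM in CD19Cre and 6.80 FPKM in floxed Gr-1- libraries. Its log2 difference was 2.05 ± 0.35 (limma adjusted p = 0.00259), and again no library of 1 subset reached the other.

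**Figure D1:**
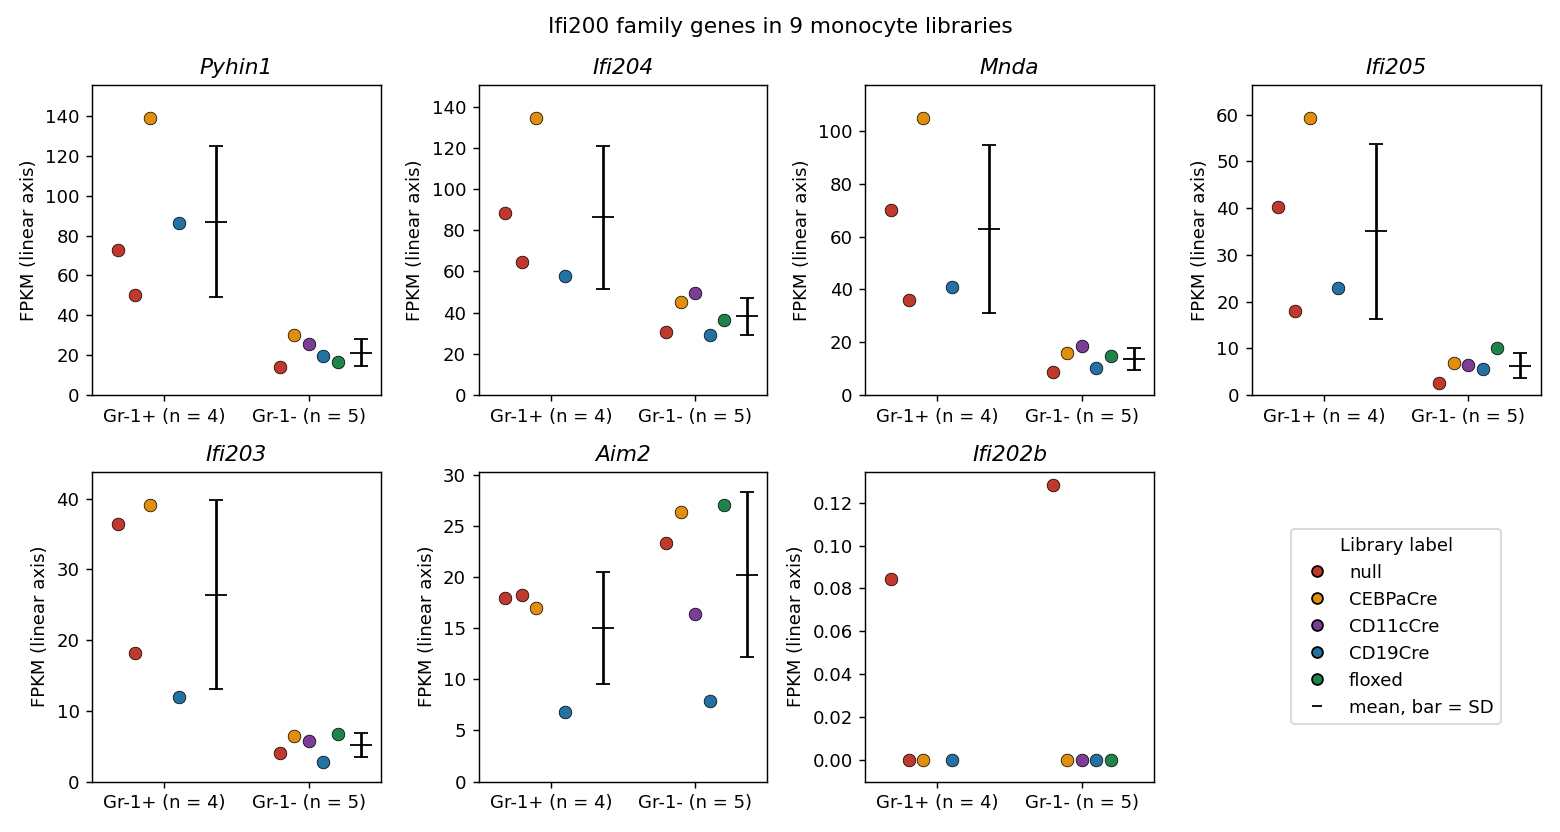
FPKM on linear axes of the 7 genes in 4 Gr-1+ and 5 Gr-1- libraries, with points coloured by library label and black marks for the mean and its SD (no mean is drawn for Ifi202b, which was listed at 0 in 7 libraries). The points of Pyhin1, Ifi204, Mnda, Ifi205 and Ifi203 do not overlap between the subsets, those of Aim2 do, and the lowest Aim2 point of each subset is the CD19Cre library.

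No overlap between the subsets, with Gr-1+ higher, was seen for the 5 called members and for 10.2% of all genes tested, while Gr-1+ was lower without overlap for 0 members and 6.26% of genes. At an unadjusted p under 0.05, the same 5 members were higher, as were 16.6% of genes, and 10.3% were lower. By an exact two-sided permutation test of each gene alone, these 5 reached p = 0.00794, the smallest that 4 libraries against 5 allow. Where subsets do not overlap, no other assignment gives a larger rise in Gr-1+, so this p largely restates the separation. The same 5 were called without both CD19Cre libraries, and with genotype as a replicate block, where 2712 genes in all were called in place of 1544.

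Aim2, the inflammasome-forming sensor, went the other way in sign. It was at 18.3 and 17.96 FPKM in null, 16.9 FPKM in CEBPaCre and 6.84 FPKM in CD19Cre Gr-1+ libraries, against 23.4 FPKM in null, 26.3 FPKM in CEBPaCre, 16.4 FPKM in CD11cCre, 7.91 FPKM in CD19Cre and 27.0 FPKM in floxed Gr-1- libraries. The 2 subsets overlapped, and the log2 difference of -0.38 ± 0.38 did not pass (limma adjusted p = 0.583). Within each genotype sampled in both subsets, Aim2 was nevertheless lower in Gr-1+, by a log2 ratio of -0.34 and -0.36 for the null replicates, -0.61 for CEBPaCre and -0.19 for CD19Cre. With genotype as a replicate block the difference was -0.38 ± 0.13 (adjusted p = 0.0718).

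Ifi202b, the strain-dependent member, was listed at 0 in 7 of 9 libraries. The exceptions were null Gr-1+ replicate 2 at 0.0843 FPKM and null Gr-1- at 0.128 FPKM. These libraries listed 5693 and 5123 genes in all at 0, against 5246 to 10140 in the 7 libraries without Ifi202b, of which the floxed library had the fewest. Set against the other 6 members, whose lowest value in any library was 2.50 FPKM, Ifi202b was the only member without appreciable RNA. No difference by subset or genotype can be read from 2 values of this size.

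The order of the members' mean levels, which FPKM states per length, differed between the subsets. In Gr-1+ libraries Pyhin1 (87.0 ± 37.7 FPKM) and Ifi204 (86.2 ± 34.7 FPKM) came first, within each other's spread, followed by Mnda (62.9 ± 31.8), Ifi205 (35.0 ± 18.8), Ifi203 (26.5 ± 13.4) and Aim2 (15.0 ± 5.47 FPKM, SD, n = 4 each). In Gr-1- libraries Ifi204 stood first at 38.2 ± 8.97 FPKM, followed by Pyhin1 (21.2 ± 6.66), Aim2 (20.2 ± 8.06), Mnda (13.6 ± 4.09), Ifi205 (6.28 ± 2.68) and Ifi203 (5.18 ± 1.67 FPKM, SD, n = 5 each). Pyhin1 and Aim2, and Ifi205 and Ifi203, lay within each other's SD in Gr-1-. In Gr-1+ the same held for Mnda with Pyhin1 and with Ifi204, and for Ifi205 with Ifi203. Ifi204 and Pyhin1 each exceeded Mnda in 9 of 9 libraries, and Mnda exceeded both Ifi205 and Ifi203 in 9 of 9. Relative to Ifi204 of the same library, Mnda was at a ratio of 0.559 to 0.795 in Gr-1+ and of 0.280 to 0.401 in Gr-1- libraries. For Ifi203 the ratio was 0.207 to 0.414 in Gr-1+ and 0.0976 to 0.186 in Gr-1- libraries. For Ifi205 it was 0.279 to 0.456 in Gr-1+ and 0.0814 to 0.274 in Gr-1-, and for Pyhin1 0.777 to 1.495 in Gr-1+ and 0.453 to 0.668 in Gr-1-. The ratio of Aim2 was 0.118 to 0.284 in Gr-1+ and 0.273 to 0.759 in Gr-1-. Ifi204 had the smallest subset fold of the called members, so higher ratios of the other called members in Gr-1+ restate those folds. Such ratios were not computed for genes outside the members.

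The 4 other family rows were measured alongside. Mndal averaged 60.3 ± 23.1 FPKM in Gr-1+ against 19.0 ± 4.88 in Gr-1- libraries, a 2.98-fold rise (limma adjusted p = 0.00349), and AI607873 averaged 60.0 ± 13.4 FPKM in Gr-1+ against 29.9 ± 7.92 in Gr-1- libraries, a 2.00-fold rise (limma adjusted p = 0.0171, but 0.0622 without the CEBPaCre Gr-1+ library and 0.0534 without the CD11cCre and floxed libraries, the alternatives spanning 3.5e-04 to 0.0622). Pydc3 (log2 difference 1.48 ± 0.57) and Pydc4 (1.34 ± 0.58) did not pass, with limma adjusted p of 0.117 and 0.163. In both, null Gr-1+ replicate 1 was low, at 1.45 FPKM for Pydc3 and 0.658 FPKM for Pydc4, and without that library they passed (adjusted p = 0.0245 and 0.024). With genotype as a replicate block they passed as well (0.0279 and 0.0424). A further row listed with the family, BC094916, had no unique entry in the RefSeq table and is not placed here. It averaged 18.4 ± 9.65 FPKM in Gr-1+ against 5.19 ± 2.22 in Gr-1- libraries, a 3.02-fold rise (limma adjusted p = 0.0105).

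**Figure D2:**
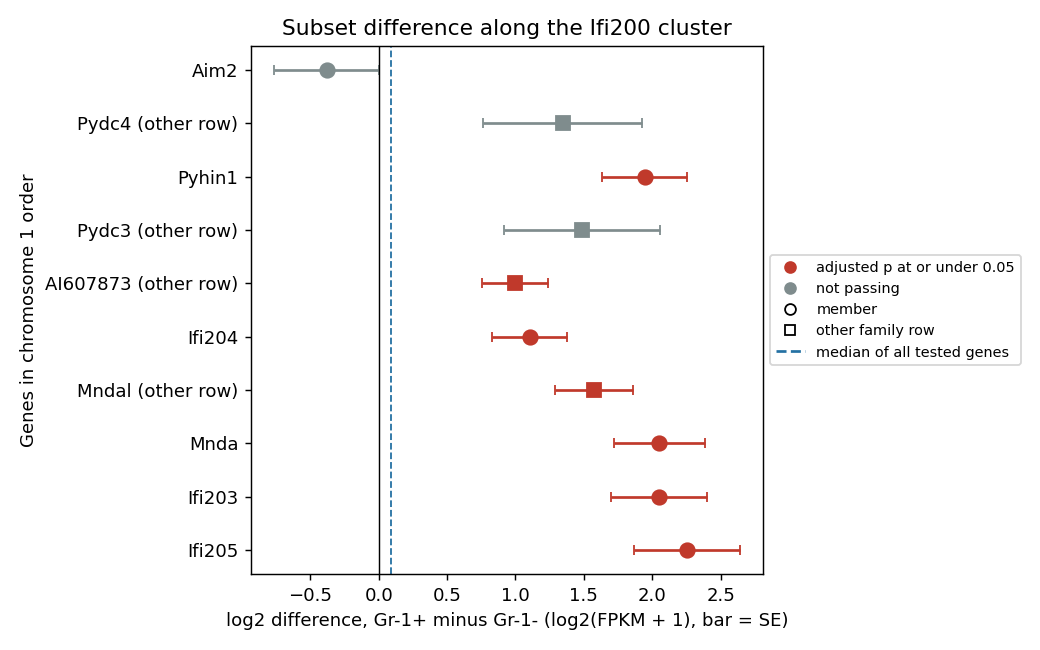
Log2 difference of log2(FPKM + 1), Gr-1+ minus Gr-1-, with its SE for the 10 tested family rows in chromosome 1 order (circles, members, and squares, other rows), in red where the adjusted p was at or under 0.05; the dashed line marks the median of all tested genes, 0.09. Aim2, at 1 end of the cluster, is the only row left of 0, and Ifi205, at the other end, lies farthest right at 2.25.

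Some transcripts of the cluster are close copies, which limits how far reads can be assigned. Of all 50-base windows in GENCODE M21 transcripts of Mnda, 72.8% also occurred in another family row, and 44.7% of all its windows occurred in Ifi205. The share was 19.1% for Ifi204, 18.6% for Ifi205, 17.3% for Mndal, 18.1% for Pydc3, 13.6% for Pydc4, 4.46% for AI607873 and 3.87% for Ifi203. Aim2, Pyhin1 and Ifi202b shared 0 windows. The level of Mnda in particular is uncertain for this reason. The levels of Pyhin1 and Aim2, which differ in their subset pattern, do not rest on windows shared with another family row. Transcripts other than those of these family rows, BC094916 among them, were not compared.

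Rows beside the cluster served as a local comparison. Of the 20 gene rows on either side, the nearest 19 after Ifi205 and the nearest 12 before Aim2 each had a mean below 1 FPKM. The first expressed row before the cluster was Dusp23, a dual-specificity phosphatase, which was also called higher, at 5.52 ± 1.80 FPKM in Gr-1+ against 3.03 ± 0.228 in Gr-1- (1.57-fold, limma adjusted p = 0.0496). The first after it was Fh1, the mitochondrial fumarase, at 27.7 ± 9.71 FPKM in Gr-1+ against 16.0 ± 2.19 in Gr-1- (log2 difference 0.70 ± 0.23, limma adjusted p = 0.0678), with overlap between the subsets. Among 39 tested chromosome 1 genes listed around Fcgr2b and the cluster, 6 were higher in Gr-1+, 2 were lower and 31 did not pass, with a median log2 difference of 0.28, against 0.09 for all genes. Cd84, a SLAM receptor, was at 43.4 ± 0.775 FPKM in Gr-1+ against 14.9 ± 0.576 in Gr-1- libraries, and Slamf9, of the same family, ran the other way at 2.41 ± 0.373 FPKM in Gr-1+ against 34.6 ± 15.2 in Gr-1- (limma adjusted p = 6.9e-05 and 7.2e-05).

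Promoters are shown because the called members changed in the same direction. The sequences are 250 bases upstream of the RefSeq start in GRCm38.p6, 5′ to 3′ on the gene's strand, for 3 members that rose (Mnda, Ifi205, Pyhin1), for Aim2, which did not pass, and for Ifi202b, which was near 0. Capitals mark matches on either strand of the core of the interferon-stimulated response element (GAAA, any 2 bases, GAAA) or of the gamma-activated sequence (TTC, any 3 bases, GAA), and no 2 matches overlapped in these windows.
Mnda (chr1:173913047-173913296, minus strand): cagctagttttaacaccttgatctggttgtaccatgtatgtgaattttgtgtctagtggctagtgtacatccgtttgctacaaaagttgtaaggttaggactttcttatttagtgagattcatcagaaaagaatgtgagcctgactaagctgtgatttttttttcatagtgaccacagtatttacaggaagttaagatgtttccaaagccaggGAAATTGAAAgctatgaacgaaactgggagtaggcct
Ifi205 (chr1:174031756-174032005, minus strand): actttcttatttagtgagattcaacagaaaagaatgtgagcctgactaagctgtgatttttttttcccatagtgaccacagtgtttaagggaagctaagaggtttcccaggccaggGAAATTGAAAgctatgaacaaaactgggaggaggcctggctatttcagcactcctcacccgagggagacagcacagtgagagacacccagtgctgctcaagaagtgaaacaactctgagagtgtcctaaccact
Pyhin1 (chr1:173630609-173630858, plus strand): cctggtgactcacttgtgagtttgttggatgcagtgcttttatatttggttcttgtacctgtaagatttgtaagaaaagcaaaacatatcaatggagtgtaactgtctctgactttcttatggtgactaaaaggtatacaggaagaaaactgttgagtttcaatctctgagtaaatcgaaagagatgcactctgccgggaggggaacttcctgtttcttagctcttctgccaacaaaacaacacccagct
Aim2 (chr1:173420354-173420603, plus strand): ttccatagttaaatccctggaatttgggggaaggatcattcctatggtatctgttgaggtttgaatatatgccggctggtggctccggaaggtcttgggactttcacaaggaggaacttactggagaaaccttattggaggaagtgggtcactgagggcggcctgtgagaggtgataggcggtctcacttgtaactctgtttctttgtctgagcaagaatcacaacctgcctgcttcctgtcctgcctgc
Ifi202b (chr1:173982845-173983094, minus strand): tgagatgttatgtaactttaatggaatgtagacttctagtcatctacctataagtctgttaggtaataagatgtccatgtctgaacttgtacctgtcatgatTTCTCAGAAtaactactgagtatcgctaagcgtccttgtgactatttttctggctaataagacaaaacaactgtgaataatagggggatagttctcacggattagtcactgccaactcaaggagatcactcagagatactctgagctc

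The interferon element core was found 37 bases upstream of the start of Mnda and 134 bases upstream of that of Ifi205, in both as GAAATTGAAA. The table lists 2 starts for Ifi203, of which the second had the core 35 bases upstream, as GAAATCGAAA, and the other had none. The same letters GAAATCGAAA stood in the windows of AI607873, Pydc3 and Pydc4 and in that of the first of 2 Mndal starts, while the second held a match on the other strand. Among 32851 promoter windows of the same length in the table, 2.98% held the core. No match was found in the windows of Aim2 and Pyhin1, of which Pyhin1 rose and Aim2 did not pass. The gamma-activated sequence matched in Ifi202b alone of the family windows, against 7.02% of all promoters. Ifi204 had no promoter entry. The windows of AI607873 and Mnda were 85.0% identical over their alignment, and those of Pydc3 and Pydc4 87.9%.

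Interferon-induced genes outside the family were examined in the same libraries. The mean log2(FPKM + 1) of 39 interferon response genes was 3.77 and 4.67 in null replicates 1 and 2, 5.79 in CEBPaCre and 4.72 in CD19Cre Gr-1+ libraries. In Gr-1- it was 2.95 in null, 4.21 in CEBPaCre, 4.17 in CD11cCre, 3.76 in CD19Cre and 3.82 in floxed. The summed FPKM of the 7 family genes was 205, 325, 494 and 227 in the same Gr-1+ libraries, and 83.4, 131, 122, 74.9 and 112 in the same Gr-1- libraries. The CEBPaCre library was highest in both measures in each subset. Of the 38 interferon response genes tested, 7 were higher in Gr-1+, 0 were lower and 31 did not pass by limma, although all 38 had a positive difference, with a median of 0.92. Slfn5, an interferon-induced Schlafen gene, rose 3.85-fold (34.8 ± 17.5 FPKM in Gr-1+, 7.86 ± 3.02 in Gr-1-, limma adjusted p = 0.0046), and Sp100, a nuclear body protein, rose 2.29-fold (adjusted p = 0.0163). The guanylate-binding gene Gbp3 (3.02-fold, 0.0189) and the immunity-related GTPase gene Ifi47 (3.34-fold, 0.0237) followed. Without the CEBPaCre Gr-1+ library, Ifi203, Ifi205, Mnda and Pyhin1 were still called. Of the Gr-1+ libraries in that fit, null replicate 2 (4.67) and CD19Cre (4.72) had a higher interferon response mean than any Gr-1- library. Null replicate 1 (3.77) did not. These means are values of single libraries and do not depend on the fit. The part that interferon signalling has in the family's subset difference was not tested.

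**Figure D3:**
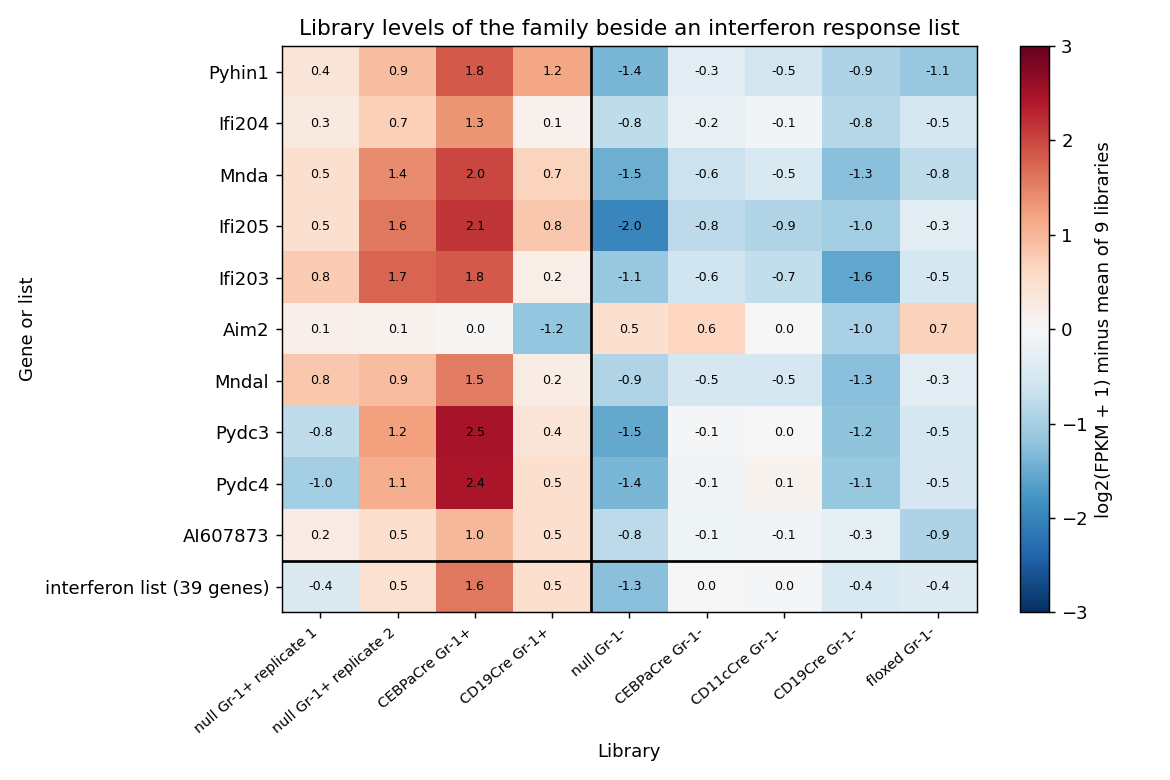
Each cell gives a library's log2(FPKM + 1) minus the row's mean over the 9 libraries, for 6 members, the 4 other family rows and, below the line, the mean of 39 interferon response genes; Gr-1+ libraries stand left of the vertical line. The CEBPaCre Gr-1+ library is the highest of 9 for every row except Aim2, and Aim2 is lowest in the 2 CD19Cre libraries, at -1.15 and -0.97.

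The partners of these sensors were mixed. In the list of DNA sensing and STING signalling, 2 of 25 tested genes were higher in Gr-1+, 1 was lower and 22 did not pass, with a median of -0.05. Tmem173, which encodes STING, the adaptor downstream of cytosolic DNA sensing, was at 67.6 ± 24.7 FPKM in Gr-1+ against 19.5 ± 5.50 in Gr-1- libraries, a 3.28-fold rise (limma adjusted p = 0.00184). Trim32, a ubiquitin ligase, passed at a low level (1.54 ± 0.477 FPKM in Gr-1+, 0.621 ± 0.162 in Gr-1-, adjusted p = 0.0386). Lrrfip1, a nucleic acid binding protein, fell to 81.8 ± 25.6 FPKM in Gr-1+ and 146.9 ± 32.5 in Gr-1- (adjusted p = 0.0457), and Rnaseh2b, a subunit of RNase H2, was at 8.50 ± 2.23 FPKM in Gr-1+ against 12.5 ± 1.33 in Gr-1- (adjusted p = 0.0991).

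Of 19 tested inflammasome genes, 4 were higher in Gr-1+, 1 was lower and 14 did not pass, with a median of 0.14. Pycard, which encodes ASC, the adaptor that AIM2 recruits, rose 1.82-fold (68.2 ± 8.78 FPKM in Gr-1+, 36.9 ± 2.84 in Gr-1-, limma adjusted p = 0.00565). Mefv, the gene of pyrin, rose 3.53-fold (adjusted p = 8.8e-05) and Il18, an inflammasome-processed cytokine, 3.30-fold (adjusted p = 0.00171). Il1b, the other such cytokine, fell to 89.1 ± 65.3 FPKM in Gr-1+ and 456.6 ± 148.6 in Gr-1- (adjusted p = 0.0037). Casp1, the protease of this complex, did not pass (70.7 FPKM in Gr-1+, 73.0 in Gr-1-, log2 difference -0.04 ± 0.21, limma adjusted p = 0.931). Of 17 genes for interferon receptors and their signalling, 0 passed by limma. The smallest p belonged to Ifnar2, a chain of the type I interferon receptor, at 88.1 ± 12.9 FPKM in Gr-1+ against 121 ± 14.3 in Gr-1- (adjusted p = 0.132).

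Markers of other blood cells differed between the same groups. The summed FPKM of 15 neutrophil genes was 878 to 2697 in Gr-1+ and 75.1 to 156 in Gr-1- libraries, and that of 12 NK cell genes 1.71 to 4.63 in Gr-1+ and 25.2 to 497 in Gr-1- libraries. Of their tested members, 10 of 13 neutrophil genes were higher and 9 of 11 NK cell genes lower in Gr-1+. S100a8 alone was at 380 to 1423 FPKM in Gr-1+. The neutrophil genes Cxcr2, Csf3r and Retnlg did not pass and overlapped between the subsets. They averaged 6.20, 81.3 and 52.0 FPKM in Gr-1+ against 7.80, 62.0 and 34.4 in Gr-1-. Mmp8 of that list also stood among 10 classical monocyte genes, of which 10 were higher in Gr-1+. The NK receptor gene Ncr1 was at 0 in all 4 Gr-1+ libraries and at 0.809 to 22.8 FPKM in Gr-1-, and the neutrophil enzyme gene Mpo was at 0.0869 to 5.68 FPKM in Gr-1+ and at 0 to 0.0565 in Gr-1-. The summed level of 8 markers of plasmacytoid dendritic cells was 7.97 to 10.0 FPKM in Gr-1+ and 7.26 to 10.2 in 4 of the Gr-1- libraries. It was 36.0 in CD11cCre Gr-1-, of which Cox6a2 alone made up 26.4 FPKM. Tcf4 made up most of the Gr-1+ sums, at 6.18 to 9.58 FPKM in Gr-1+ and 3.78 to 5.41 in Gr-1-, so the similar sums do not show equal markers. By limma Tcf4 was called higher in Gr-1+, and Spib lower (0.409 ± 0.187 FPKM in Gr-1+, 1.97 ± 0.793 in Gr-1-). The summed level of 8 T cell genes was 0.441 to 1.81 FPKM in Gr-1+ and 1.62 to 11.1 in Gr-1-, where the floxed library alone gave 11.1 and the next highest, CD11cCre, 5.07. Cd3e was at 2.04 FPKM in the floxed library, 0.109 in null Gr-1+ replicate 2 and 0 in the other 7 libraries. The part of these cells in the family's values was not tested.

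The profile closest to a member was sought over the 9 libraries among 9265 named genes, by the root mean squared difference of centred log2(FPKM + 1), where 0 means the same profile. Mnda was nearest to Ifi203 (0.29) and Ifi205 (0.29), and Ifi203 was nearest to Slfn5 (0.24) and then to Mnda. Ifi204 was nearest to Siglec1 (0.16), which encodes sialoadhesin and was lower in level, at 2.57 FPKM in Gr-1+ against 0.390 in Gr-1-. Ifi204 averaged 86.2 FPKM in Gr-1+ and 38.2 in Gr-1-, a smaller relative change. The added 1 FPKM shrinks changes of a low gene such as Siglec1, so this nearness does not mean equal folds in FPKM. Pyhin1 was nearest to Pgcp (0.28), a carboxypeptidase gene, and Aim2 to Hnrnph1 (0.10), the gene of an RNA-binding protein. Pydc3 and Pydc4 were nearest to each other (0.12), with Oas3 and Isg15 behind Pydc3 (0.36 and 0.37) and Ifit3 and Isg15 behind Pydc4 (0.36 and 0.36). All these rows share the same libraries, and the measure carries no test.

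The second comparison asked how the family differs where the label removes Fcgr2 from myeloid cells. It set the null and CEBPaCre libraries (5, deleted) against the CD19Cre and floxed libraries (3, intact) at equal subset, without CD11cCre. None of the 6 tested members was called by limma, and 0 of 10429 genes were called in either direction (0%). At an unadjusted p under 0.05, 8.52% of all genes were higher and 5.57% lower, and Aim2 was the 1 member among them. No member was free of overlap between the groups, against 4.34% of genes on the higher and 1.14% on the lower side. Each group held libraries of both subsets, so overlap was certain for Ifi203, Ifi204, Ifi205, Mnda and Pyhin1, which were separate between subsets. For these genes the overlap cannot show whether the deletion groups differ. The group means that follow are not at equal subset, since 3 of 5 deleted but 1 of 3 intact libraries were Gr-1+, whereas the log2 differences are. Aim2 averaged 20.6 ± 4.08 FPKM in deleted libraries (SD, n = 5) and 13.9 ± 11.4 in intact ones (SD, n = 3), with a log2 difference of 0.94 ± 0.35 (unadjusted p = 0.0258, limma adjusted p = 0.308). Ifi203 averaged 20.9 ± 16.4 FPKM in deleted and 7.21 ± 4.59 in intact libraries (log2 difference 0.63 ± 0.38, adjusted p = 0.45), and Ifi204 averaged 72.6 ± 40.7 FPKM in deleted and 41.1 ± 14.9 in intact libraries (0.39 ± 0.29, adjusted p = 0.534). The differences of Mnda (0.25 ± 0.38), Pyhin1 (0.06 ± 0.37) and Ifi205 (-0.14 ± 0.48) were smaller than their standard errors. In the lists of DNA sensing, inflammasome and interferon response genes 0 were called as well, with median log2 differences of -0.23, 0.21 and -0.14, against -0.03 for all genes.

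Within the intact group the Aim2 values were far apart. The 2 CD19Cre libraries, at 6.84 and 7.91 FPKM, were the lowest of all 9, and the floxed library, at 27.0 FPKM, was the highest. Floxed was sampled in 1 library, so its genotype and its library cannot be told apart. The floxed library was also the highest of 9 in T cell genes, and the CD19Cre pair the lowest in ribosomal share, and their part in the Aim2 values was not tested. Without the floxed library, which leaves only CD19Cre in the intact group, the Aim2 difference was 1.39 ± 0.17 (limma adjusted p = 0.00857), in a fit where 2551 genes were called in all. With library weights it was 1.23 ± 0.23 (adjusted p = 0.0418), with 673 genes called. The adjusted p of all alternatives spanned 0.00857 to 1. The test of the interaction between deletion and subset called 0 members by limma, where 0.0479% of genes were called higher and 0.0384% lower. At an unadjusted p under 0.05 it was again 0 members, with 2.04% of genes higher and 1.21% lower. The largest interaction was that of Ifi205 (1.30 ± 0.91, adjusted p = 0.882). It rests on 1 intact Gr-1+ library.

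**Figure D4:**
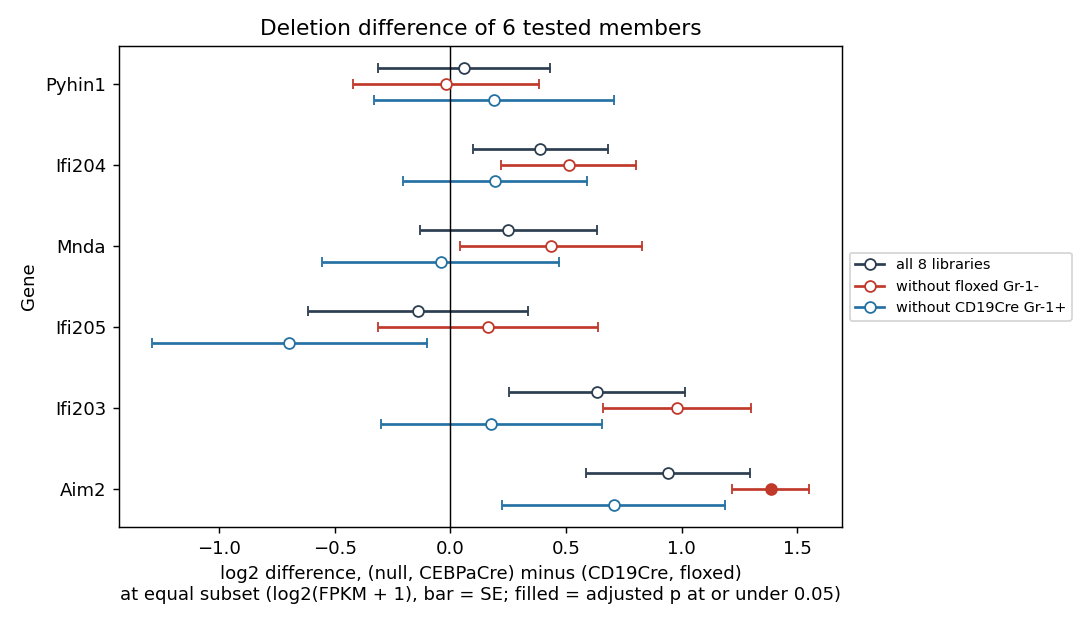
Log2 difference of log2(FPKM + 1), null and CEBPaCre minus CD19Cre and floxed at equal subset, with its SE, for the 6 tested members with all 8 libraries, without the floxed Gr-1- library and without the CD19Cre Gr-1+ library; filled points have an adjusted p at or under 0.05. Aim2 without the floxed library, at 1.39, is the only filled point.

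Single libraries of each genotype were compared as values, with 2-fold of FPKM + 1 as the mark. Over CD19Cre in Gr-1+, CEBPaCre was at least 2-fold higher for 5 of 6 members (9.05% of 10521 genes), Pyhin1 being the exception at 1.60-fold, and at least 2-fold lower for 0 members (6.43% of genes). Null replicate 2 was past the mark for 2 members (7.15% of genes), Ifi203 (2.89-fold) and Aim2 (2.42-fold), and null replicate 1 for Aim2 only (2.46-fold, with 9.34% of genes past the mark). Neither was 2-fold lower for any member, whereas 15.9% and 11% of genes were that low in replicates 2 and 1. The Aim2 ratio over CD19Cre was thus 2.46, 2.42 and 2.29 in the 3 other Gr-1+ libraries.

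In Gr-1-, with floxed as the base, null was at least 2-fold lower for 1 member, Ifi205 (2.50 FPKM in null, 9.98 FPKM in floxed), where 1.88% of genes were that low and 2.11% that high. CD19Cre was at least 2-fold lower for Aim2 (7.91 FPKM in CD19Cre, 27.0 FPKM in floxed) and Ifi203 (2.83 FPKM in CD19Cre, 6.80 FPKM in floxed), with 6.29% of genes that low and 18.9% that high. CEBPaCre and CD11cCre passed the mark for 0 members in either direction, with 9.25% and 12.7% of genes at least 2-fold higher and 2.57% and 4.11% lower. The null Gr-1- library had the lowest Pyhin1, Mnda and Ifi205 values of the 9 libraries. These pairs have no replicate, so they describe the libraries and not the genotypes.

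The subset pattern was present in every genotype that had both subsets. Gr-1+ over Gr-1- was at least 2-fold for 5 of 6 members in null replicate 1 (9.95% of genes), null replicate 2 (7.22%) and CEBPaCre (7.91%), and for 4 of 6 in CD19Cre (7.08%), where Ifi204 was at 1.96-fold. No member was 2-fold lower in Gr-1+, against 4.69%, 5.6%, 5.97% and 7.9% of genes in these 4 pairs. For Ifi205 the ratio was 5.40 and 11.8 for the null replicates, which share 1 Gr-1- library, 7.63 in CEBPaCre and 3.59 in CD19Cre. For Mnda it was 3.85 and 7.39 in null, 6.21 in CEBPaCre and 3.76 in CD19Cre. For Pyhin1 it was 3.41 and 4.92 in null, 4.49 in CEBPaCre and 4.29 in CD19Cre, the narrowest range of the 3.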

How the data were processed

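Files held 1 library each with 1 value per gene symbol. The deposited values are FPKM made by the authors for each library. Cufflinks 2.1.1, TopHat2 2.0.8 and mm9 are listed in the submitters' processing notes, while annotation and settings are not given in the sources used here. Libraries were made from sorted cells with the SMART-Seq v4 kit, per the labels' protocols. Every value column was used (0 left out). Exact zeros can be failed estimates, and depth is unknown, so no counting interval is given.

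Group differences came from limma 3.58.1, run in R 4.3.3 (statmod 1.5.0 for weights and random blocks; trend in eBayes) on log2(FPKM + 1), a scale that understates changes of low genes. Genes needed a mean of at least 1 FPKM over 9 libraries and to be above 0 in 2 or more of those fitted. The call was an adjusted p at or under 0.05 over all tested genes. The subset and deletion fits were also run on simulated data with independent noise in each library and changes larger than those of the members. That run leaves out any likeness between libraries of the same genotype. The subset fit had no covariate, and the deletion fit had the subset as one. Alternatives changed the pseudocount, the filter, the scaling, library weights, the block and the libraries included.

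Named genes were all members, up to 4 genes of each list by subset p and up to 2 by deletion p (which are not described), and the 5 nearest profiles, of which the first few are given. Members and lists were chosen with earlier results of these data known. Casp1, Mpo, S100a8, Cxcr2, Csf3r, Retnlg, Mmp8, Ncr1, Cd3e, Cox6a2, Tcf4, Spib, Dusp23 and Fh1 were named after their values were seen. The labels number only the null libraries and do not tie libraries to mice, so pairing was looked for in how libraries deviated from the mean of their subset over 10521 genes. The correlation of these deviations was 0.56 for the CD19Cre pair, 0.13 to 0.22 for other pairs of the same genotype and -0.34 to 0.21 otherwise. Only the CD19Cre pair thus stood clear of pairs of unlike genotype. Genotype was also fitted as a replicate block.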

Additional observations from a re-analysis of the deposited data

Results flagged for a closer look

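Aim2 in the CD19Cre Gr-1+ library, at 6.838 FPKM, stood apart from the other 3 Gr-1+ libraries, which lay at 16.9 to 18.3 FPKM. Its gap to the nearest was 0.882 of the range of the group. This was the only such value among 20 groups of a family gene in 1 subset, and chance gives about 1 in 20. The CD19Cre Gr-1- library, at 7.91 FPKM, was also the lowest of its subset.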

How the results depend on the processing

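Of the family's results by subset, the number of called members was 5, and 4 to 5 when 1 library was left out. The calls of Ifi203, Ifi205, Mnda and Pyhin1 were kept under every alternative run, and the call of Ifi204 was lost under 4 of 21. All genes called by subset numbered 1544, 1128 to 1578 when 1 library was left out, 2376 with library weights, 2712 with genotype as a replicate block, 3493 with it as a random replicate block and 965 without the CD11cCre and floxed libraries. The block changed no member's call in the subset fit. In the deletion comparison, 0 members and 0 genes were called, against 1 member and 673 genes with library weights, and 0 to 1 members and 0 to 2551 genes when 1 library was left out, where the highest counts came without the floxed library. Deletion differences near 0 changed sign. With 1 library left out, Ifi205 ran from -0.70 to 0.27, Mnda from -0.0428 to 0.51 and Pyhin1 from -0.22 to 0.28. Ifi205 was 0.16 and Pyhin1 -0.0015 with library weights, and Pyhin1 was -0.0299 with CD11cCre counted as intact. The interaction changed sign for Pyhin1, at 0.0248 with quantile normalization and -0.83 to 0.23 with 1 library left out, and for Aim2, at -0.28 to 1.37 with 1 library left out. Leaving out libraries in the interaction fit was chosen after seeing the data, and it could not be fitted without the CD19Cre Gr-1+ library. Rescaling by median of ratios moved the median interaction of all genes to -0.04, against -0.18 as deposited. The cause of these changes was not tested. Depth is unknown, so a low value such as that of Ifi202b has no detection limit.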
